A study of Homo sapiens with 192 samples.

Results

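The mismatch repair genes described here were MSH6, MSH3, PMS2, PMS1, MLH3 and PCNA, 6 of the 58243 Ensembl gene identifiers counted in the series. They were taken by name, their identifiers were matched to GENCODE 29 on GRCh38, and their counts were summed over the technical replicates of each library. Poly(A) RNA was sequenced from 4 colorectal cancer (CRC) cell lines: HT29 and LS513, which are microsatellite stable (MSS), and HCT116 and LS174T, which are microsatellite instable (MSI). Each line was grown without drug in 2D and in 3D, where the study's methods describe spheroids in low attachment plates, with 3 libraries per line and growth condition and 24 libraries in all. HCT116 was cultured in McCoy medium and the other lines in DMEM, so line and medium cannot be told apart for HCT116. Each line is a tumor cell model without the stroma or immune cells of a tumor, and nothing in the labels says that the libraries of a group came from separate cultures. The p-values therefore measure the spread between these libraries, which may be technical and was estimated over the 24 libraries together. That spread was unequal between groups. Its median chi-square per degree of freedom, relative to counting error, was 3.06 in LS513 2D and 15.0 in LS174T 3D.

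DNA mismatch repair removes base mismatches and small loops that the replication polymerases leave behind. A MutS protein reads the error: MSH6 belongs to the complex that binds mismatched bases and short loops, MSH3 to the complex that binds longer insertion and deletion loops. A MutL protein then nicks the new strand or passes the signal on, which is mainly the work of PMS2, whereas PMS1 has a minor part and MLH3 is best known from meiotic crossing over. PCNA, the ring that holds polymerases on DNA, directs the MutL nick, and exonuclease EXO1, the RPA proteins, DNA polymerase delta and a ligase complete the repair. Loss of the pathway leaves short repeats unstable, which is the MSI phenotype of a subset of CRC.

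In the annotation, MSH6 (ENSG00000116062) lies at chr2:47695530-47810101 on the plus strand, MSH3 (ENSG00000113318) at chr5:80654648-80876460 on the plus strand, and PMS2 (ENSG00000122512) at chr7:5973239-6009125 on the minus strand. PMS1 (ENSG00000064933) lies at chr2:189784085-189877629 on the plus strand, MLH3 (ENSG00000119684) at chr14:75013764-75051532 on the minus strand, and PCNA (ENSG00000132646) at chr20:5114953-5126626 on the minus strand. All 6 are protein coding. Their longest transcripts have 10, 24, 15, 12, 13 and 7 exons in that order.

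Promoters of replication genes often carry a site for E2F factors, which turn on genes for DNA synthesis, so the RefSeq promoter windows (GRCh38.p14, 250 bases before to 50 bases after each start) were searched on both strands for the 8-letter words TTTCCCGC, TTTCGCGC, TTTGCCGC and TTTGGCGC. All 6 genes had a window, and 4 of the 6 (MSH6, MSH3, PMS2 and PCNA) had a word in at least 1 of them, against 3.99% of the 27305 genes with a window. Over windows, the words were in 5 of 11 windows of these genes and in 3.31% of all 35116. A match is a description of letters and not of binding. The stretches are shown because each of these genes, whose levels are compared below, has 1 or more of the 4 words in a promoter window, with the words in capitals and each read along the strand of its gene. The MSH6 stretch lies at chr2:47783118-47783155, on the plus strand, with the word starting 3 bases after the RefSeq start of its window. That window, chr2:47782895-47783194, lies within the annotated gene, and the other MSH6 windows had no word. The MSH3 stretch is at chr5:80654515-80654586, also on the plus strand and 107 bases before the start, where words on opposite strands overlap. The PMS2 stretch lies at chr7:6009112-6009179, on the minus strand, 43 and 100 bases before the annotated starts. The PCNA stretch at chr20:5126644-5126711, on the minus strand, has its word on the opposite strand 59 bases before the RefSeq start of its window. The other PCNA window had no word.
MSH6: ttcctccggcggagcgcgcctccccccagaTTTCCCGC
MSH3: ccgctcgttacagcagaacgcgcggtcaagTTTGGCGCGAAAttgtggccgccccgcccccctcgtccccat
PMS2: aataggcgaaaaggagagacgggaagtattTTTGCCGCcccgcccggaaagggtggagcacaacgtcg
PCNA: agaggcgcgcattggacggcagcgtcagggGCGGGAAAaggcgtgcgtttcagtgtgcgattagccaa

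Library totals ran from 18723942 to 34277421 counts, with a median of 30777613.5 and the lowest in HT29 2D replicate 3, and a floor of 3 counts corresponded to 0.0875 to 0.160 CPM, which are counts scaled to library size. Every one of the 6 genes was far above this floor in each library and passed the filter on low counts, as did 19387 genes in all. EPCAM, KRT8 and KRT18 marked all 4 lines as epithelial, at 257 CPM or more. However, some markers of the colorectal lining were nearly absent: CDH17 was at most 0.0653 CPM and VIL1 at most 0.294 CPM in HCT116. KRT20 was at most 2.89 CPM in HCT116 and at 0.658 to 15.2 CPM in LS174T. In HT29, CDX2 was at 0.963 to 7.72 CPM and CDH17 at 2.52 to 6.40 CPM. CDH1 was at 18.0 to 26.8 CPM in LS174T and 22.1 to 40.9 CPM in LS513. It was at 77.3 to 151 CPM in HCT116 and 401 to 521 CPM in HT29. Of 8 genes of other cell types, the T cell gene CD3E and the collagen gene COL1A2 had no count in any library, the leukocyte gene PTPRC and the collagen gene COL3A1 had at most 2 and the endothelial gene VWF at most 22. The collagen gene COL1A1 was at 9.89 to 21.8 CPM in HCT116 and at most 1.096 CPM in the other lines, and the endothelial gene PECAM1 reached 2.29 CPM in HT29 and at most 0.148 CPM elsewhere. CD68, a lysosomal gene used as a macrophage marker, was higher in 3D in every line by 0.92 to 2.01 on the log2 scale. The summed level of the 8 genes was 2.22 to 28.2 CPM in 2D and 5.31 to 92.6 CPM in 3D, and its part in the results was not tested.

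Levels of different genes were compared per length, as CPM divided by the kilobases of exon (RPKM). PCNA was far above the other genes, with group means from 220 to 313 RPKM. MSH6 followed at 6.002 to 19.1 RPKM. The other 4 lay below MSH6 in each group of libraries, PMS1 at 3.57 to 6.46, PMS2 at 3.16 to 6.15, MSH3 at 0.696 to 6.56 and MLH3 at 1.48 to 3.36 RPKM. As a ratio of its highest to its lowest group mean, MSH3 had the widest range among the 6. The order of genes close in level depends on the length used. With the longest transcript in place of the union of exons, the mean over libraries went from 4.75 to 7.58 RPKM for PMS1 and from 3.30 to 3.79 RPKM for MSH3, so their order against each other was not read.

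**Figure D1:**
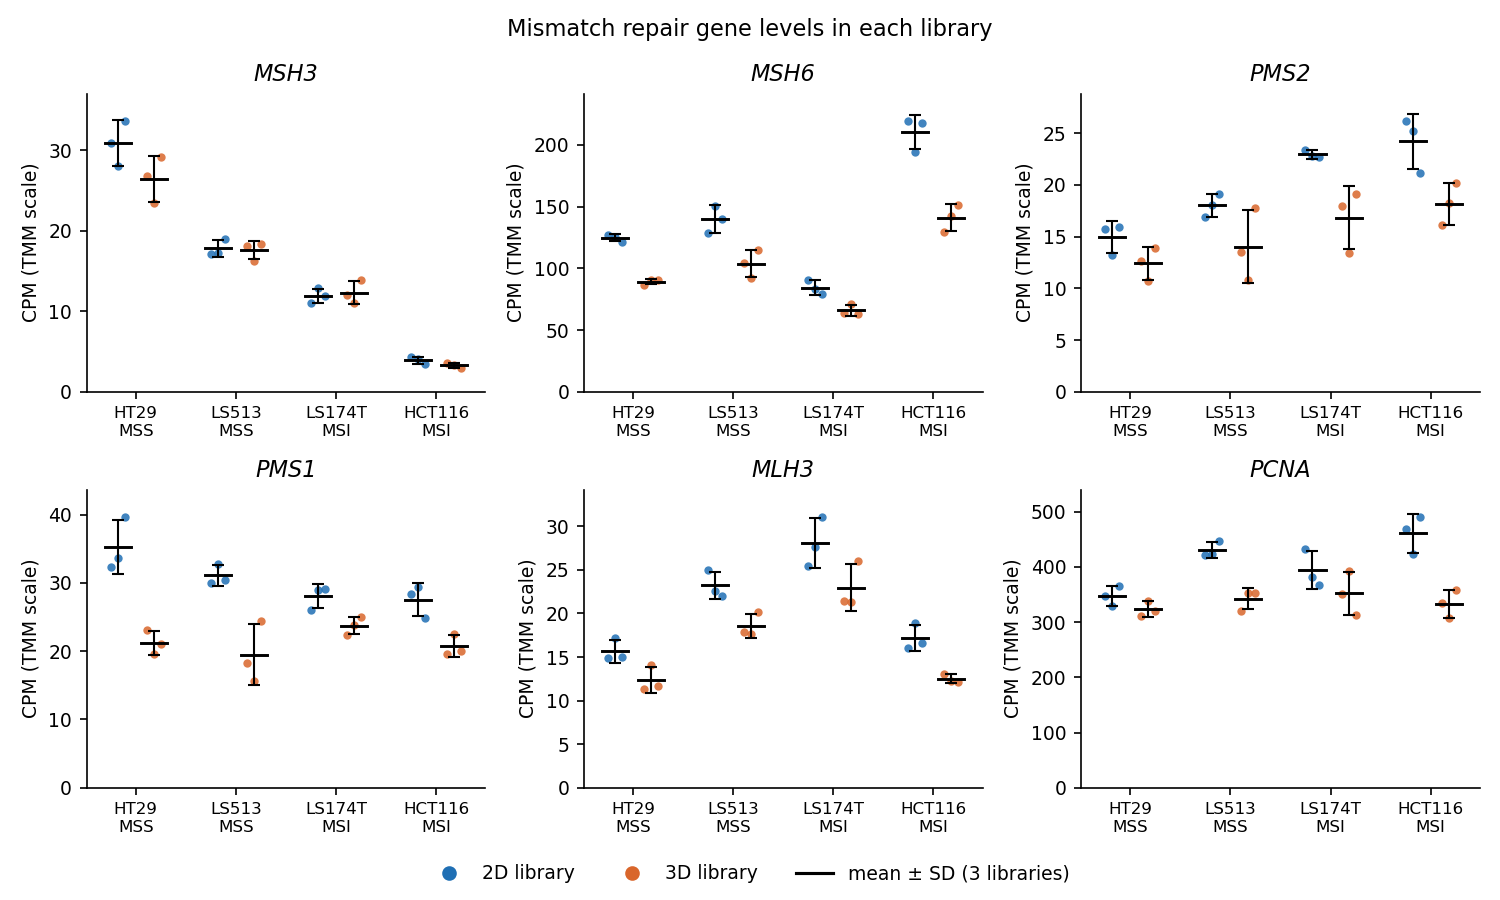
Expression levels of the 6 genes in CPM on the TMM scale (linear axes from 0), with 1 point per library, bars at the mean ± SD of 3 libraries, and lines ordered from MSS to MSI. MSH3 descends from HT29 to HCT116, and MSH6 has its highest libraries in HCT116 2D, at 194.1 to 219.6 CPM.

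MSH6, the MutS protein for base mismatches, was lower in 3D than in 2D in all 4 lines and was the gene of the 6 called in every line. In HT29 it was at 127.0, 125.8 and 121.6 CPM in 2D and 86.8, 90.2 and 90.5 CPM in 3D. In LS513 it was at 128.5, 150.8 and 140.3 CPM in 2D and 104.3, 92.3 and 114.6 CPM in 3D. The 3D libraries of both MSS lines lay below all their 2D libraries. In HCT116 the values were 219.6, 194.1 and 217.4 CPM in 2D and 129.3, 142.7 and 151.0 CPM in 3D. In LS174T they were 90.8, 83.0 and 79.6 CPM in 2D and 63.6, 70.9 and 63.4 CPM in 3D. The growth conditions did not overlap in the MSI lines either. The Log2foldchange of 3D over 2D was -0.48 in HT29 (SE 0.09, edgeR adjusted p = 1.8e-04), -0.43 in LS513 (SE 0.09, adjusted p = 0.0011), -0.36 in LS174T (SE 0.09, adjusted p = 0.0071) and -0.58 in HCT116 (SE 0.09, adjusted p = 4.5e-05). A decrease called in all 4 lines was found for 2.46% of the genes tested. It held in each of 14 other settings in HT29, LS513 and HCT116, and 13 of 14 kept it in LS174T, where a fit of the LS174T libraries alone gave an adjusted p of 0.069. In these bulk libraries, a transcript in fewer cells and less of it per cell cannot be told apart.

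MSH3, the MutS protein for longer loops, did not pass the test for growth in any line. In HT29 it was at 30.9, 28.0 and 33.7 CPM in 2D and 26.8, 23.4 and 29.2 CPM in 3D, and in LS513 at 17.1, 17.3 and 19.0 against 18.1, 16.3 and 18.4 CPM. In LS174T it was at 11.0, 12.9 and 11.8 CPM in 2D and 12.0, 11.0 and 13.9 CPM in 3D. HCT116 was the lowest, at 4.29, 4.03 and 3.40 CPM in 2D and 3.56, 3.33 and 2.94 CPM in 3D, which rest on 88 to 142 counts per library. The 2D and 3D libraries overlapped in every line, and the lines themselves stood apart. The 95% intervals of the Log2foldchange were -0.46 to 0.02 in HT29, -0.26 to 0.23 in LS513, -0.20 to 0.30 in LS174T and -0.54 to 0.03 in HCT116, with edgeR adjusted p-values of 0.14, 0.99, 0.81 and 0.17. In each line the MSH6 estimate lay below the lower end of the MSH3 interval, although the difference between the genes was not itself tested.

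Between lines, MSH3 was the gene that differed most among the 6. Averaged over growth conditions, it was 7.99 times higher in HT29 than in HCT116, 4.93 times higher in LS513 than in HCT116 and 3.37 times higher in LS174T than in HCT116. HT29 was 2.37 times above LS174T and 1.62 times above LS513, and LS513 was 1.46 times above LS174T. All 6 pairs of lines passed the test (background shares of called genes for HCT116 against HT29, LS513 and LS174T were 75.7%, 76.2% and 76%, for LS174T against HT29 and LS513 73.5% and 68.9%, and for LS513 against HT29 69.3%), so the order HT29, LS513, LS174T, HCT116 had no neighbours within their spread. The nearest, LS513 and LS174T, differed by 0.55 on the log2 scale (SE 0.08, edgeR adjusted p = 3.5e-06). Every MSI library, at 2.94 to 13.9 CPM, was below every MSS library, at 16.3 to 33.7 CPM, a pattern found for 3.9% of all genes tested. The MSI minus MSS difference was -1.77 (SE 0.06, 95% interval -1.90 to -1.64, adjusted p = 6.8e-18), and it was -1.78 in 2D and -1.76 in 3D. HCT116 was grown in McCoy medium and the other lines in DMEM, and the part of the medium in this difference was not tested. With 2 lines a type, the test covers the spread between libraries of these lines and not between lines of a type.

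**Figure D2:**
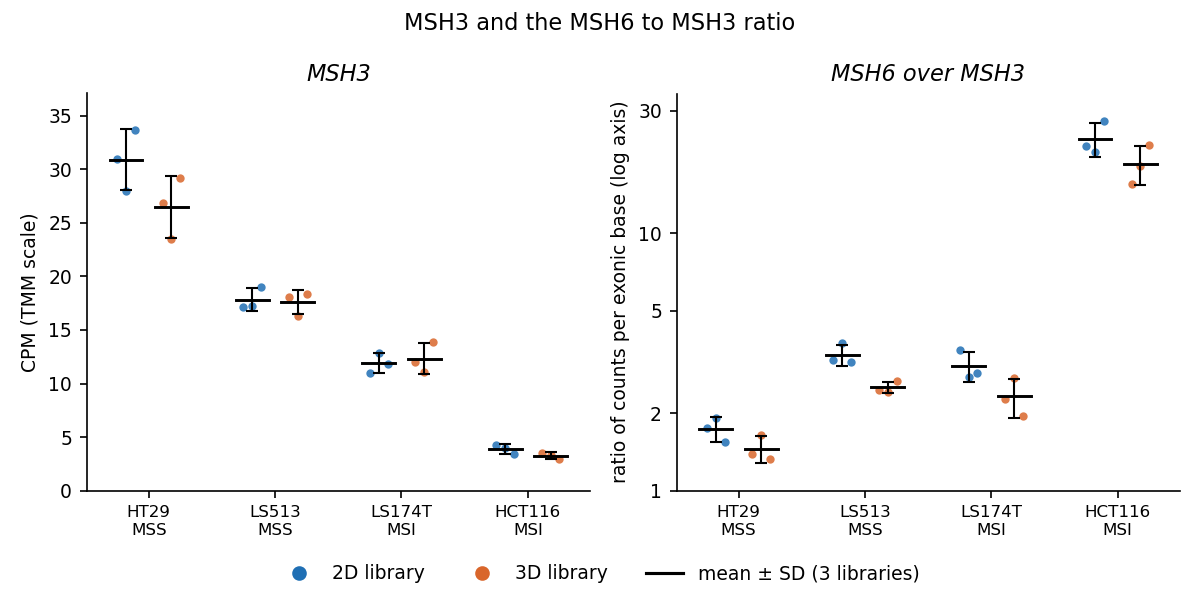
Levels of MSH3 in CPM (linear axis from 0) and the ratio of MSH6 to MSH3 counts per exonic base (log axis), with 1 point per library and bars at the mean ± SD of 3 libraries. MSH3 differs 7.99-fold between HT29 and HCT116, and the ratio in HCT116, 15.6 to 27.4, is above that in every library of the other lines.

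MSH6 and MSH3 read different errors, and the ratio of their counts per exonic base was taken in each library. It was 1.33 to 1.92 in HT29 (median 1.60), 2.43 to 3.75 in LS513 (median 2.91), 1.96 to 3.54 in LS174T (median 2.76) and 15.6 to 27.4 in HCT116 (median 21.3). HCT116 stood apart from the others, where LS513 and LS174T overlapped although they are of different type. The ratio was lower in 3D by mean in each line, 1.74 ± 0.189 against 1.45 ± 0.170 in HT29, 3.37 ± 0.325 against 2.52 ± 0.130 in LS513, 3.06 ± 0.416 against 2.32 ± 0.401 in LS174T and 23.3 ± 3.57 against 18.6 ± 3.22 in HCT116 (SD, n = 3). Its growth conditions overlapped in HT29 and HCT116, and no test was made of the ratio. MSH6 shares 1785 exonic bases (16.2%) with FBXO11 on the opposite strand. The counting option for strand is not given in the sources used here. Reads over those bases may have been assigned to either gene or left out. The levels of MSH6, the ratio, and the MSH6 differences between lines and growth conditions have that limit. PMS1 shares 103 exonic bases (1.89%) with ORMDL1 on the opposite strand and has the same limit.

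MSH6 between lines did not follow the MSI type. HCT116 was highest and LS174T lowest, 2.34 times apart, with LS513 and HT29 between them. All 6 pairs passed the test, the closest being LS513 and HT29 with a difference of 0.19 (SE 0.06, edgeR adjusted p = 0.0096). Since the MSI lines held both ends of the order, the MSI minus MSS mean was 0.01 (95% interval -0.08 to 0.10, adjusted p = 0.93).

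**Figure D3:**
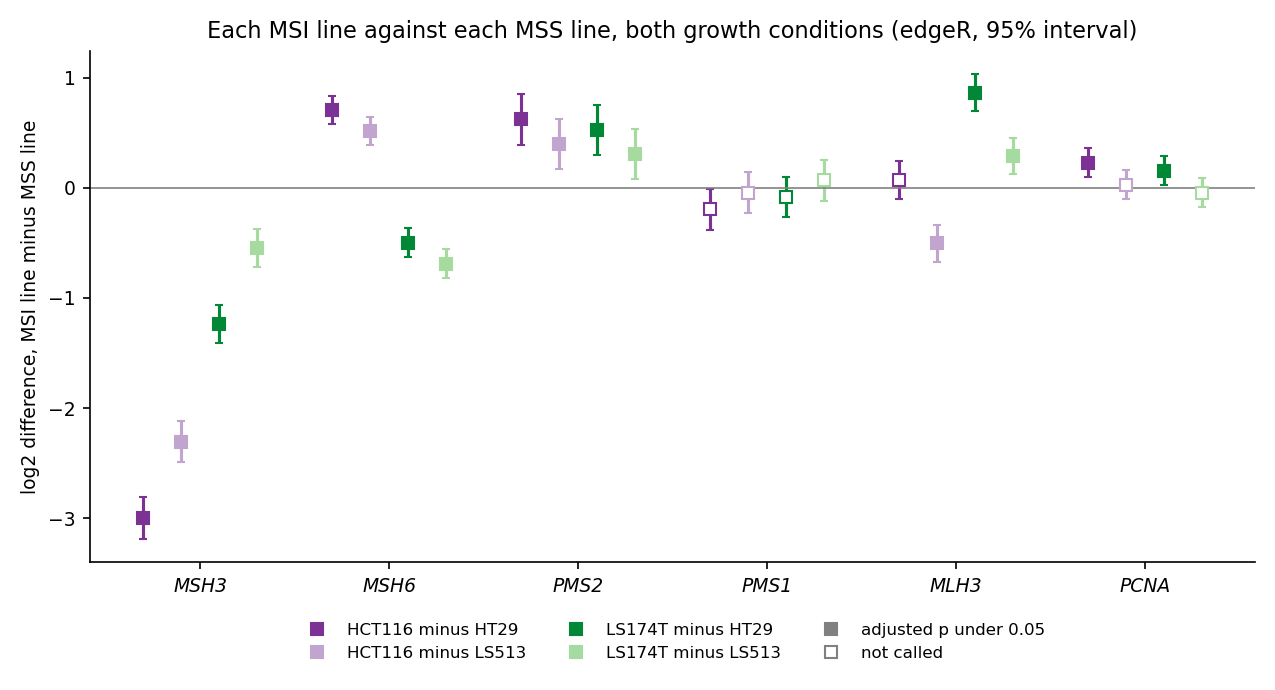
Log2 difference of each MSI line minus each MSS line over both growth conditions, with 95% intervals from edgeR (filled squares: adjusted p under 0.05). MSH3 is below 0 in all 4 pairs, PMS2 above 0 in all 4, and MSH6 and MLH3 have pairs on both sides of 0.

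PMS2, the MutL endonuclease, was higher in the MSI lines. In 2D it was at 26.2, 25.2 and 21.2 CPM in HCT116 and 23.4, 22.8 and 22.7 CPM in LS174T. The MSS libraries in 2D were lower, at 15.8, 13.2 and 15.9 CPM in HT29 and 16.9, 18.0 and 19.1 CPM in LS513. The types therefore did not overlap in 2D, which was true, with MSI higher, of 9.62% of genes tested. In 3D they did: HCT116 was at 16.1, 18.2 and 20.2 CPM, LS174T at 17.9, 13.4 and 19.2 CPM, HT29 at 12.6, 10.8 and 13.9 CPM and LS513 at 13.6, 10.8 and 17.7 CPM. The MSI minus MSS difference was 0.46 over both growth conditions (SE 0.08, edgeR adjusted p = 1.1e-05), 0.52 in 2D and 0.41 in 3D. By pair, HCT116 was above HT29 by 0.62 and above LS513 by 0.40, and LS174T was above them by 0.53 and 0.31, the last at an adjusted p of 0.016. That pair was lost without LS513 3D replicate 2 (adjusted p = 0.077) and without LS174T 3D replicate 3 (adjusted p = 0.052). HCT116 and LS174T did not differ beyond their spread (adjusted p = 0.45), nor did LS513 and HT29 (adjusted p = 0.081).

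In 3D, PMS2 fell in HCT116 (-0.41, SE 0.15, edgeR adjusted p = 0.046) and in LS174T (-0.44, SE 0.15, adjusted p = 0.041), where all 3D libraries were below the 2D libraries. It was at -0.27 (adjusted p = 0.19) in HT29 and -0.36 (adjusted p = 0.099) in LS513, where growth conditions overlapped. These calls were close to the threshold: PMS2 was called in 7 of 14 other settings in HCT116 and in 6 of 14 in LS174T. In LS174T the call was lost without any 1 of 2D replicates 1, 2 and 3 and 3D replicates 1 and 2, at an adjusted p of at most 0.24. In LS513 it was gained without 3D replicate 3 (adjusted p = 0.011).

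PMS2 has near-identical copies, and reads that aligned more than once were removed, so its counts are uncertain. The 11 listed copies include PMS2P1 with 7972 counts and PMS2CL with 4198 counts over all libraries, against 13151 for PMS2 itself. PMS2CL had the same order by type as PMS2, with differences of 0.89 and 0.27 for HCT116 and 0.95 and 0.34 for LS174T over HT29 and LS513. The pair of 0.27 was called in 5 of 30 other settings, which include leaving out libraries of lines outside the pair. The copies PMS2P1 and PMS2P3 did not share this order. PMS2P1 was lower in HCT116 than in LS513, at -0.24 (edgeR adjusted p = 0.017), and its MSI minus MSS difference was 0.03 (adjusted p = 0.69). PMS2P3 was lower in HCT116 than in HT29 and LS513, with differences of -1.08 and -1.01. For growth, PMS2CL was not called in any line, with differences between -0.07 and 0.26, and PMS2P1 rose in HT29 (0.32, edgeR adjusted p = 0.046).

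PMS1, the MutL protein with a minor part in repair, had the largest decrease in 3D among the 6 in both MSS lines. In HT29 it was at 32.4, 33.7 and 39.7 CPM in 2D and 23.1, 19.6 and 21.0 CPM in 3D. In LS513 it was at 30.1, 32.8 and 30.5 CPM in 2D and 18.3, 15.7 and 24.4 CPM in 3D. The 3D libraries were all lower in both. The HCT116 values were 28.5, 29.4 and 24.8 CPM in 2D and 19.6, 22.6 and 20.0 CPM in 3D, and the LS174T values 26.1, 29.03 and 29.1 CPM and 22.4, 23.8 and 25.0 CPM. Here too the conditions did not overlap, although LS174T had the smallest gap. The Log2foldchange was -0.73 in HT29 (SE 0.13, edgeR adjusted p = 1.0e-04), -0.68 in LS513 (SE 0.13, adjusted p = 4.3e-04), -0.24 in LS174T (SE 0.13, adjusted p = 0.17) and -0.41 in HCT116 (SE 0.13, adjusted p = 0.017). The HCT116 call was lost without 2D replicate 1 (adjusted p = 0.061), 2D replicate 2 (0.075) or 3D replicate 1 (0.055).

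The PMS1 growth effect was less negative in MSI than in MSS lines by 0.38 (95% interval 0.11 to 0.64), which did not pass correction over all genes (p = 0.0069, edgeR adjusted p = 0.14). The test across the 4 lines did not pass either (adjusted p = 0.14). Without LS513 3D replicate 3, both passed, with adjusted p-values of 0.027 and 0.025. Between lines, no pair differed for PMS1 over both growth conditions; the largest difference was -0.19 for HCT116 minus HT29 (adjusted p = 0.053). Within 2D, where the MSS lines were high, MSI minus MSS was -0.25 (SE 0.09, adjusted p = 0.017), and within 3D it was 0.12 (adjusted p = 0.24).

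MLH3, the MutL protein of meiotic crossing over, was called lower in 3D in 3 of the 4 lines. It was at 16.0, 18.9 and 16.6 CPM in 2D and 13.1, 12.3 and 12.2 CPM in 3D in HCT116, and at 25.4, 27.7 and 31.1 against 21.5, 21.3 and 26.0 CPM in LS174T. In HT29 it was at 14.9, 17.2 and 15.0 against 11.3, 14.1 and 11.7 CPM, and in LS513 at 25.0, 22.6 and 22.0 against 17.8, 17.7 and 20.2 CPM. The growth conditions overlapped in LS174T and not in the other lines. MLH3 fell in HCT116 (-0.46, SE 0.12, edgeR adjusted p = 0.0048), in HT29 (-0.34, SE 0.12, adjusted p = 0.023) and in LS513 (-0.32, SE 0.12, adjusted p = 0.044), and was at -0.29 (SE 0.11, adjusted p = 0.068) in LS174T. The HCT116 call held in 14 of 14 other settings, against 7 of 14 in HT29 and 6 of 14 in LS513. In HT29 it was lost without 2D replicate 1 or 2 or 3D replicate 1 or 4 (adjusted p-values up to 0.17), and in LS513 without any 2D replicate or 3D replicate 1 or 2 (up to 0.18). In LS174T it was gained without 3D replicate 3 (adjusted p = 0.019).

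Between lines MLH3 was highest in LS174T, then LS513, then HCT116 and HT29, whose difference of 0.07 was not called (edgeR adjusted p = 0.43). LS174T was above HCT116 by 0.79 and above HT29 by 0.86 on the log2 scale. The MSI minus MSS mean of 0.18 (SE 0.06, adjusted p = 0.0075) therefore combined 2 positive pairs from LS174T with -0.50 for HCT116 minus LS513 and the uncalled pair of HCT116 and HT29.

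PCNA fell in 3D in HCT116 and LS513. It was at 468.9, 422.3 and 490.8 CPM in 2D and 333.7, 307.6 and 357.1 CPM in 3D in HCT116, and at 421.7, 423.3 and 446.2 against 320.0, 352.8 and 353.2 CPM in LS513. In HT29 it was at 346.3, 328.8 and 364.6 CPM in 2D and 310.0, 338.8 and 319.9 CPM in 3D, and in LS174T at 432.4, 381.8 and 366.3 against 350.7, 392.0 and 313.4 CPM. The conditions overlapped in HT29 and LS174T. The Log2foldchange was -0.47 in HCT116 (SE 0.09, edgeR adjusted p = 4.7e-04) and -0.33 in LS513 (SE 0.09, adjusted p = 0.0094), the latter lost without LS513 3D replicate 1 (adjusted p = 0.052). It was -0.10 in HT29 (95% interval -0.29 to 0.08, adjusted p = 0.39) and -0.16 in LS174T (-0.35 to 0.03, adjusted p = 0.21). The difference of the growth effect between lines had an adjusted p of 0.13, and it passed with DESeq2 (adjusted p = 0.038) and without HCT116 3D replicate 3 or LS174T 3D replicate 2 (both 0.040). Between lines, HT29 was lowest, below HCT116 by 0.23, LS513 by 0.20 and LS174T by 0.15 on the log2 scale, and the other 3 did not differ beyond their spread.

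**Figure D4:**
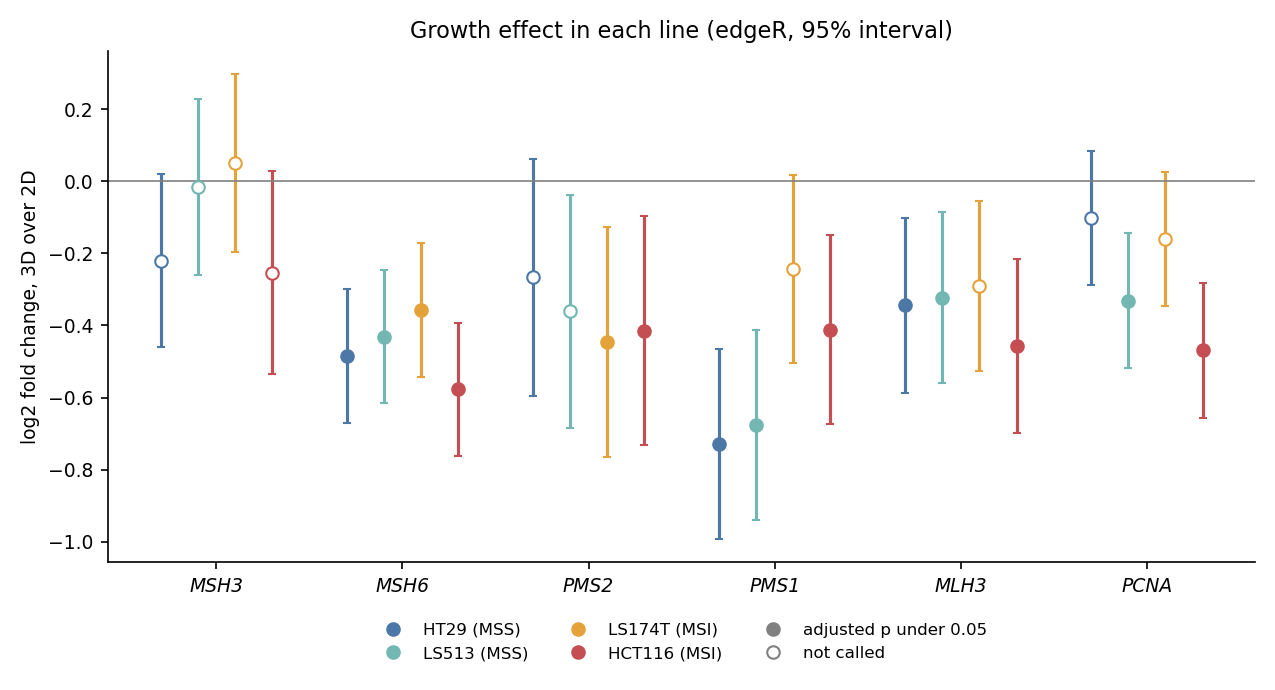
Log2foldchange of 3D over 2D for each gene and line, with 95% intervals from edgeR (filled circles: adjusted p under 0.05). Of 24 estimates, 23 are below 0, 14 of them called; MSH6 is called in all 4 lines and MSH3 in none.

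Counted over the 6 genes, 3 were called lower in HT29, 4 in LS513, 2 in LS174T and 5 in HCT116, and none higher. Over all genes tested, the same call was made for 19.6% in HT29, 9.9% in LS513, 9.15% in LS174T and 12.3% in HCT116. The 3D libraries were all below the 2D libraries for 3 of the 6 genes in HT29, 4 in LS513, 3 in LS174T and 5 in HCT116, against 25.6%, 20%, 17.6% and 17.6% of all genes. The median Log2foldchange of the 6 was -0.31, -0.35, -0.27 and -0.44 in that order, where the median of all genes was at most 0.02 in size. None of the 6 was called for a difference of the growth effect between lines, where 17.1% of genes were, or between types, where 2.7% were. At an unadjusted p under 0.05, 2 (PMS1 and PCNA) and 1 (PMS1) were. DESeq2 called 1 and 0. By type, 3 of the 6 were called over both growth conditions (MSH3 lower, PMS2 and MLH3 higher), against 70.3% of all genes. In 2D, 4 were called, against 62.4%, and in 3D 2 were, against 64.2%. A call in all 4 pairs of an MSI and an MSS line was found for MSH3, lower in MSI like 8.67% of genes, and PMS2, higher like 10.4%.

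Of 8 genes of proliferation, 4 fell in HT29, 5 in LS513, 4 in LS174T and 6 in HCT116, against 19.6%, 9.9%, 9.15% and 12.3% of all genes, and none rose. E2F1, a factor that turns on genes for DNA synthesis, is 1 of these 8 genes and is named outside the naming rule. It was called in no line, at -0.24 to 0.16, and its part in the levels of the 6 genes was not tested. TOP2A, the topoisomerase of dividing cells, fell by 1.08 in HT29, 0.75 in LS513, 0.58 in LS174T and 0.99 in HCT116. MKI67, the Ki-67 antigen, fell by 1.21 in HT29 and 0.92 in LS174T, and it was at -0.48 and -0.45 in LS513 and HCT116 (edgeR adjusted p = 0.056 and 0.064). The summed level of the 8 genes was 2577 to 2619 CPM in 2D and 1501 to 1580 CPM in 3D in HT29, and 2427 to 2643 against 1757 to 2088 CPM in LS513. It was 2084 to 2555 against 1504 to 1811 CPM in HCT116 and 1477 to 1603 against 1132 to 1167 CPM in LS174T. Its part in the lower levels of the mismatch repair genes in 3D was not tested.

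Of 17 genes for excision and resynthesis, 6 fell and 2 rose in HT29, 9 fell and 1 rose in LS513, 5 fell and 1 rose in LS174T, and 8 fell and 1 rose in HCT116. Of all genes, 19.6% were called lower and 21.1% higher in HT29, 9.9% and 13.7% in LS513, 9.15% and 13.1% in LS174T, and 12.3% and 16.8% in HCT116. The list's medians were -0.20, -0.27, -0.12 and -0.26 on the log2 scale in that order. EXO1, the exonuclease that removes the error, fell in every line, by 0.51 in HT29, 0.61 in LS513, 0.74 in LS174T and 0.71 in HCT116. RFC3, a subunit of the loader that puts PCNA on DNA, fell by 0.69, 0.61, 0.44 and 0.59, and POLE, the catalytic subunit of the leading strand polymerase, fell by 0.67, 0.41, 0.44 and 0.52 in the same order. RFC4 of the same loader fell by 0.74 in HCT116. POLD4, the smallest subunit of DNA polymerase delta, rose in all 4 lines, by 1.18 in HT29, 1.27 in LS513, 1.03 in LS174T and 2.32 in HCT116. In HCT116, POLD4 went from 6.65 ± 1.79 CPM in 2D to 33.2 ± 1.86 CPM in 3D (SD, n = 3). RPA3, of the protein that covers bare strands, rose by 0.46 in HT29. The EXO1, POLE and POLD4 calls held in each of 32 other settings in every line. The RFC3 calls held in all 32 except in LS174T, where 30 kept it. The 32 settings include leaving out each library of the other lines, which does not change the libraries compared. A share of 32 therefore cannot be set beside a share of the 14 settings counted for the 6 genes.

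**Figure D5:**
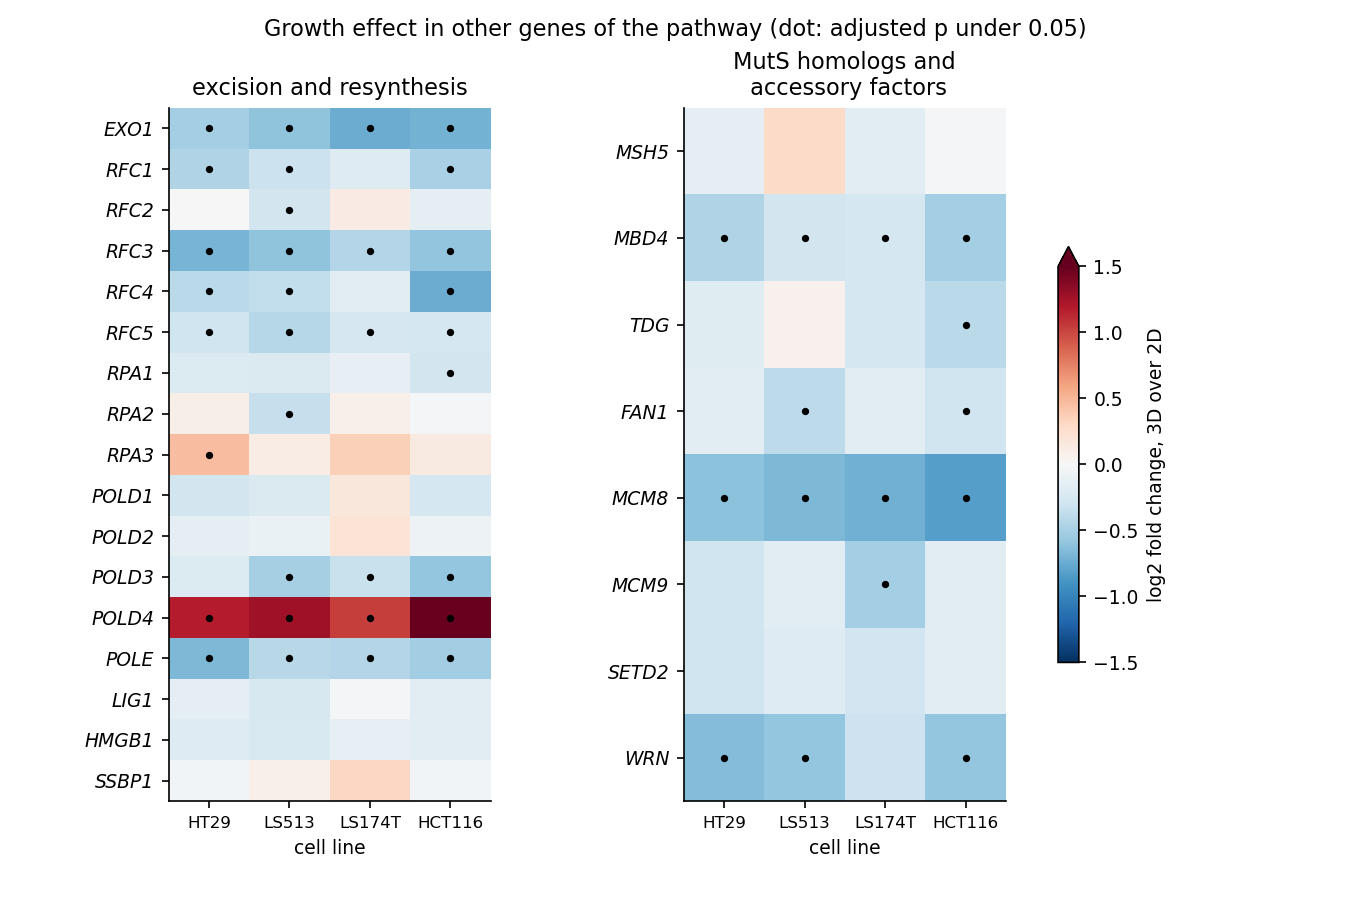
Log2foldchange of 3D over 2D as color (scale from -1.5 to 1.5, higher values in the end color) for the 17 excision and resynthesis genes and 8 of the 9 MutS homologs and accessory factors, MSH4 being left out for its counts near 0. Dots mark an adjusted p under 0.05; EXO1, RFC3, RFC5, POLE, MBD4 and MCM8 are lower and POLD4 is higher with a dot in all 4 lines.

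Among 9 MutS homologs and accessory factors, 3 fell in HT29, 4 in LS513, 3 in LS174T and 5 in HCT116, against 19.6%, 9.9%, 9.15% and 12.3% of all genes, and none rose. MCM8, a helicase of DNA repair, fell by 0.62 in HT29, 0.67 in LS513, 0.73 in LS174T and 0.83 in HCT116. WRN, the helicase on which MSI cells depend, fell by 0.65, 0.58 and 0.58 in HT29, LS513 and HCT116 and was at -0.31 in LS174T (edgeR adjusted p = 0.23). MCM9, the partner of MCM8, fell by 0.51 in LS174T. The meiotic gene MSH4, which is outside the naming rule and was chosen after its values were seen, had 8 to 31 counts in each MSI library and 0 to 3 in each MSS library.

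Of 19 genes that load, unload or bind PCNA, 9 fell in HT29, 9 in LS513, 6 in LS174T and 10 in HCT116, against the same shares of all genes called lower. UBE2B alone rose, in LS513 (0.45) and HCT116 (0.30), where 13.7% and 16.8% of all genes were called higher. ATAD5, which takes PCNA off DNA, fell by 1.17 in HT29, 0.57 in LS513, 0.82 in LS174T and 1.12 in HCT116, although the LS513 call held in 16 of 32 other settings. DNMT1, the maintenance methyltransferase that rides on PCNA, fell by 0.78, 0.53, 0.46 and 0.65 in that order. USP1, which removes ubiquitin from PCNA, fell by 0.91 in HCT116, and PARPBP and DSCC1 fell by 0.83 and 0.82 in LS513. The DSCC1 decrease was not particular to LS513, being called in all 4 lines at 0.45 to 0.87. UBE2B, which with its partner ligase puts ubiquitin on PCNA, was called in HCT116 in 20 of 32 other settings. For ATAD5 and UBE2B alike, the 32 include leaving out libraries of other lines, which does not change the libraries compared.

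By type, some other pathway genes passed in all 4 pairs of an MSI and an MSS line. Those named here were chosen after their values were seen. Of all genes tested, 10.4% were higher in MSI in all 4 pairs and 8.67% lower. Among the 17 excision and resynthesis genes, 1 was higher and 3 were lower. Among the 9 MutS homologs and accessory factors, 3 were higher and 1 was lower. Of the 19 genes that load, unload or bind PCNA, 3 were higher (CHAF1A, CHAF1B and DNMT1). EXO1 was higher in MSI by 0.47 to 0.79 on the log2 scale, and MSH5, a meiotic MutS homolog, by 0.41 to 1.31. MBD4, a glycosylase for mismatched thymine, was lower by 0.29 to 1.77. POLD3 was lower by 0.58 to 1.00, POLD4 by 1.49 to 2.10 and HMGB1, a chromatin protein of the excision step, by 0.44 to 0.94. WRN was higher by 0.30 to 0.76, and its smallest pair, LS174T minus LS513, was called in 11 of 30 other settings. Those 30 include leaving out libraries of lines outside the pair.

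The genes whose log2 CPM followed each of the 6 most closely over the 24 libraries were listed as a description. The libraries share lines and growth conditions, so a correlation mostly restates differences between lines. MSH3 was closest to EPN1 (Pearson r = 0.99), FFAR4 (0.98) and ACTR3C (0.98), and MSH6 to SUPT16H (0.96), NAT10 (0.95) and TRIM59 (0.95). PMS2 was closest to GNPTAB, MGA and HASPIN (each 0.94), and MLH3 to TOP2B (0.94), KIAA1328 (0.93) and PLEKHA8 (0.93). PMS1 was closest to ZNHIT6 (0.92), KNTC1 (0.91) and the helicase BLM (0.90). PCNA had no gene as close, with UPF1 (0.83), MND1 (0.81) and SFPQ (0.81) leading.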

How the data were processed

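The authors deposited raw read counts per gene for each technical replicate. Reads of strand-specific poly(A) libraries were trimmed with Trim Galore 0.4.1, aligned with STAR, stripped of multiply aligned reads and counted with HTSeq 0.5.3, with no normalization. The processing notes name hg19 and the methods Ensembl 91 of GRCh38; coordinates here are GENCODE 29 on GRCh38, matched by gene identifier. The strand option of HTSeq is not given in the sources used here. Technical replicates were summed, 8 per library except in HT29 3D replicate 4, where 7 were used and 1 was not analysed here.

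The summed counts went into edgeR 4.0.16 (R 4.3.3), with filterByExpr (minimum count 10, 19387 genes kept), TMM scaling, 1 robust quasi-likelihood model for the 24 libraries in 8 groups, Benjamini-Hochberg adjustment over all genes and calls at 0.05. CPM use TMM library sizes, and RPKM the union of exons. The fold change SE is the difference divided by the root of F. Replicate numbers did not pair the samples. Alternatives were DESeq2 1.42.0, its size factors, no count filter, a replicate block, subsets of technical replicates, fits of the compared libraries alone, the longest transcript as length and each library left out. The fit was tested on simulated data. The 6 genes and the gene lists were chosen with earlier results of these data known. Named genes are the 6, the genes on the opposite strand that share exonic bases with MSH6 and PMS1, and PMS2 copies. In each list and line, at most the 2 largest called in each direction are named, with exceptions stated. Some results are not reported here. The count floor covers counting error only.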

Additional observations from a re-analysis of the deposited data

Results flagged for a closer look

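No value of the 6 mismatch repair genes met a criterion for a closer look, and groups of 3 libraries are too small for the test of single libraries that stand apart. In the pathway lists, the growth effect of 3 genes differed between lines by the edgeR interaction test. RFC4, of the PCNA loader, was at -0.41 in HT29, -0.36 in LS513, -0.17 in LS174T and -0.74 in HCT116 (adjusted p = 0.0101). POLD4 was at 1.18, 1.27, 1.03 and 2.32 in that order (adjusted p = 0.00626). FEN1, the flap endonuclease that binds PCNA, was at 0.14 in HT29, -0.35 in LS513, -0.21 in LS174T and -0.23 in HCT116 (adjusted p = 0.0195). Over all genes tested, 17.1% passed this test.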

How the results depend on the processing

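In LS174T, 2 of the 6 genes were called for growth, against 1 with the replicate block, 1 with technical replicates a to d and 0 in a fit of the compared libraries alone (3 at an unadjusted p under 0.05 by edgeR, and 3 called by DESeq2). For the difference between lines DESeq2 called 1 and edgeR 0. With the replicate block the other counts were 2 in HT29, 3 in LS513 and 4 in HCT116; the comparison of types could not be fitted with it, since it is nested in line. Same-numbered libraries correlated between -0.21 and 0.22 over 11 pairs, 2 of them over 0.1, so the numbers give no pairing. Leaving out 1 library gave 2 to 3 calls in HT29, 2 to 5 in LS513, 1 to 3 in LS174T and 3 to 5 in HCT116, 3 to 4 by type over both conditions and in 2D, 2 in 3D, 0 to 1 for differences of the growth effect between lines or types, and 1 to 2 for genes called in all 4 pairs. It gave mean RPKM of 2.19 to 2.29 for MLH3, 3.13 to 3.41 for MSH3, 10.5 to 11.1 for MSH6, 4.64 to 4.83 for PMS1, 4.40 to 4.57 for PMS2 and 249.8 to 255 for PCNA. With the longest transcript these were 3.79 for MSH3, 16.0 for MSH6, 7.58 for PMS1, 6.20 for PMS2 and 274 for PCNA. No called value changed sign. For single genes there were 720 values with a library left out and 396 under other settings. These totals include results not called in the main fit, which had no call to lose, so they give no rate of loss. Among them 30 and 15 values lost their call, and 10 and 8 gained one. The cause was not tested. Of the growth calls, MLH3 in LS513 and PMS2 in LS174T each held in 6 of 14 settings. Depth limits MSH3 in HCT116 most, at 88 to 142 counts.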
